A study of Mus musculus with 6 samples.

Results

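The BCL2 family genes were taken as the rows of the deposited gene table whose symbol was Bcl2, Bcl2l1, Bcl2l2, Mcl1, Bax, Bak1, Bad, Bid, Bbc3 or Bcl2l11. All 10 genes were found, each as 1 row, among 54532 genes. The data were sequenced polyadenylated RNA of hearts from 6 mice aged 12 weeks, each mouse with its own library. The 3 Mc4r KO mice were homozygous for the knockout and the 3 WT mice were their littermates, and both came from matings of heterozygous parents on a C57B/6/N background with free access to standard chow. The knockout was carried by the whole animal, so the heart cells were not the only cells without the gene. Mc4r encodes the melanocortin-4 receptor, which acts in the hypothalamus to restrain feeding. The sources named the tissue differently: heart or muscle in the labels and left ventricle in the study.

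BCL2 family proteins decide whether the outer mitochondrial membrane stays closed. BAX and BAK (gene Bak1) are the effectors, which form pores in that membrane and let cytochrome c out to switch on the caspases. BCL2, BCL-XL (gene Bcl2l1), BCL-W (gene Bcl2l2) and MCL1 are the survival proteins, which hold the effectors and their activators in check. BIM (gene Bcl2l11), BID, PUMA (gene Bbc3) and BAD carry only the BH3 domain and start the process, either by engaging the effectors or by occupying the survival proteins. Heart muscle cells are long-lived and rarely divide, and MCL1 in particular is known to be required for their survival. The comparison asked whether the transcripts of these genes differed between the hearts of Mc4r KO and WT mice.

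Between 14691076 and 16047003 reads per library were counted on genes. Of Mc4r itself, WT replicate 3 held 2 reads and no other library held any, under the floor of 3 reads, so the genotype could not be checked from its transcript. All 7 cardiomyocyte markers were detected, while the skeletal muscle myosins Myh1, Myh2 and Myh4 were below the filter on low values in all libraries together. The other 3 of the 6 skeletal muscle markers, Acta1, Tnnt3 and Ckm, passed it, with 2 estimates higher and 1 lower in Mc4r KO mice. All 6 summed to 356 to 594 FPKM in WT and 574 to 959 FPKM in Mc4r KO mice. WT replicate 3 stood apart from its group: its correlation with Mc4r KO replicate 1 was 0.962 across genes, against 0.946 and 0.952 with WT replicates 1 and 2. In replicate order, the mitochondrial chromosome held 59.3, 57.4 and 47.1% of all FPKM in the WT mice. It held 43.6, 46.6 and 43.0% in the Mc4r KO mice, so that every WT library was above every Mc4r KO library in this share. The fits given below with this share as a covariate therefore cannot fully separate it from the genotype. Summed over the cardiomyocyte markers, FPKM ran from 12271 to 12942 in WT mice and from 14846 to 16379 in Mc4r KO mice. Of their 7 estimates, 5 were higher and 2 lower in Mc4r KO mice. For the 5 fibroblast markers the sums were 163 to 174 and 123 to 138, and for the 7 erythroid markers 860 to 6345 and 620 to 1652. Of the fibroblast estimates 1 was higher and 4 were lower, and all 7 erythroid estimates were lower. The 4 atrial markers summed to 747 FPKM in WT replicate 3, against 28.6 and 95.2 in the other WT mice and 6.29 to 136 in Mc4r KO mice, and all 4 estimates were lower in Mc4r KO mice. The leukocyte markers summed to 92.6 to 151 FPKM in WT and 67.0 to 167 FPKM in Mc4r KO mice, with 5 of 6 estimates lower. None of these markers was called. In such bulk tissue, fewer cells of a type and less RNA per cell cannot be told apart, and the part of these cell type markers in the results below was not tested.

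FPKM count the fragments mapped to a gene per length of the gene and depth of the library, and so allow levels to be compared between genes. Mcl1 was the highest of the 10 genes in all 6 libraries, at a mean of 63.9 FPKM. Bcl2l1 followed at 12.6, Bcl2l2 at 10.3, Bax at 6.66, Bak1 at 5.48 and Bad at 5.21 FPKM. Bcl2l11 at 1.97, Bbc3 at 1.66, Bcl2 at 1.04 and Bid at 0.286 FPKM were the lowest. The gene that gives the family its name was thus near the bottom of the order, and Mcl1 transcripts were the main survival transcripts in these hearts. The range over libraries was separate between Mcl1 and Bcl2l1, between Bcl2l2 and Bax, between Bad and Bcl2l11 and between Bcl2 and Bid. It overlapped between the other neighbours. Bax was above Bak1 in 6 of 6 libraries although their ranges overlapped. For 2 pairs the more frequent order differed between the groups: Bcl2l1 was above Bcl2l2 in 1 of 3 WT and 3 of 3 Mc4r KO libraries, and Bcl2l11 was above Bbc3 in 3 of 3 WT and 1 of 3 Mc4r KO libraries.

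The 250 bases before the start of transcription are given for Bcl2l1 and Bcl2l11, the genes with the largest differences in opposite directions that did not overlap between groups, and for Bcl2 and Mcl1, the survival genes that were lower in Mc4r KO mice. The sequences are RefSeq promoters of build GRCm38.p6, which is mm10, written 5′ to 3′ on the strand of the gene. Capitals mark the letters GGGCGG of the GC box on either strand and GTAAACA, letters read by FOXO factors.
Bcl2l1, chr2:152831729-152831978, minus strand: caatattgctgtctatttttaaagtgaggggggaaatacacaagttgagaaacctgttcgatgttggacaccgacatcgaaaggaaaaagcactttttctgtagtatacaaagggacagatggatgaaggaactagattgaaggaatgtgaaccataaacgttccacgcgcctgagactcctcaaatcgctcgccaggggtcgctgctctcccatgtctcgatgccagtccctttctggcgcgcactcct
Bcl2l11, chr2:128125788-128126037, plus strand: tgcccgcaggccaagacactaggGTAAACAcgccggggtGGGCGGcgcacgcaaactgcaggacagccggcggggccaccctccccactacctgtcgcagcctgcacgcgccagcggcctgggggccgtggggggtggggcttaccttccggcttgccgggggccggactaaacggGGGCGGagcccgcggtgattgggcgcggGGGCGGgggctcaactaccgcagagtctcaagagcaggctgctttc
Bcl2, chr1:106714291-106714540, minus strand: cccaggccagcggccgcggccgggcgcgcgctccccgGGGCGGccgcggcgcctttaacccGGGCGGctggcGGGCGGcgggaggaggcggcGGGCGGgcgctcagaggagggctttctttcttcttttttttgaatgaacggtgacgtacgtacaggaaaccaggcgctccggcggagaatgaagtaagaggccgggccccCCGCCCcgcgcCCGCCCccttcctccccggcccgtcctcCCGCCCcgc
Mcl1, chr3:95658471-95658720, plus strand: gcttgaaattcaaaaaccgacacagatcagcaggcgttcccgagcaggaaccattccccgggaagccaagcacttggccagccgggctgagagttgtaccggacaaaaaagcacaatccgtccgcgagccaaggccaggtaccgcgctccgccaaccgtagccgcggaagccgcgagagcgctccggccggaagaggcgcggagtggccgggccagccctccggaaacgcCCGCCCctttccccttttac

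The RefSeq table held 16 promoter windows for the 10 genes. GGGCGG stood in 11 of the 16 windows, from 8 of the 10 genes, and in 32.7% of all 32851 promoters of the same length. The Bcl2 window held it 7 times, that of Bcl2l11 3 times and that of Mcl1 once. None of the windows of Bcl2l1 or Bak1 held it. The 3 Bcl2l1 windows were 47.6 to 53.2% G and C, against 74.8% for Bcl2, 72.0% for the Bcl2l11 window shown and a median of 52.4% over all promoters. The median over the 16 windows was 64.6%, and windows of the same gene can overlap, as for Bbc3. GTAAACA, searched on both strands, stood in 3.17% of all promoters and in the windows of 2 BH3-only genes, 227 bases before the start of Bcl2l11 and 167 bases before the RefSeq start of Bbc3 at chr7:16310261. The core of the hypoxia element, ACGTG, stood in windows of Bax and Bbc3 and in 16.6% of all promoters. The decamer of a p53 half-site stood in the Bax window alone, 201 bases before the start, and in 7.13% of all promoters. TTCNNNGAA, the letters of STAT factors, and TTTGGCGC, those of E2F factors, stood in 0 of the 16 windows and in 7.02% and 0.417% of all promoters. No motif overlapped another in the windows shown. These matches describe the letters of the windows only.

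None of the 10 genes passed the test between the groups. The test was limma on log2(FPKM + 0.1) over the 18035 genes with a mean of at least 0.1 FPKM, and a gene was called at a Benjamini-Hochberg adjusted p under 0.05 with an absolute log2 fold change above 0.75. It called 83 genes, or 0.46% of those tested. All 10 genes passed the filter on low values. At an unadjusted p under 0.05 there were 7 of the 10 genes, 4 higher and 3 lower in Mc4r KO mice, where 12% of all genes tested were higher and 8.83% lower at that level. The same 7 genes had no overlap between the 3 WT and 3 Mc4r KO libraries, 4 with all Mc4r KO libraries above and 3 with all below, beside 14.1% and 12.4% of all genes tested. Of the 10 estimates, 6 were above 0 and the median log2 fold change was 0.15, against -0.01 over all genes tested. Of the 20 alternative settings, 5 called 2 of the 10 genes each and the others none. Limma's voom method on the reads recovered from the FPKM called Bcl2l1 and Bcl2l11, and 1.76% of all genes tested. The same 2 genes were called with array weights, where 2.41% of all genes were called, with protein-coding genes only, where 1.51% were, and with a minimum mean of 1 FPKM, where 1.3% were. Bcl2l1 and Bad were called without WT replicate 3, where 3.5% of all genes were.

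**Figure D1:**
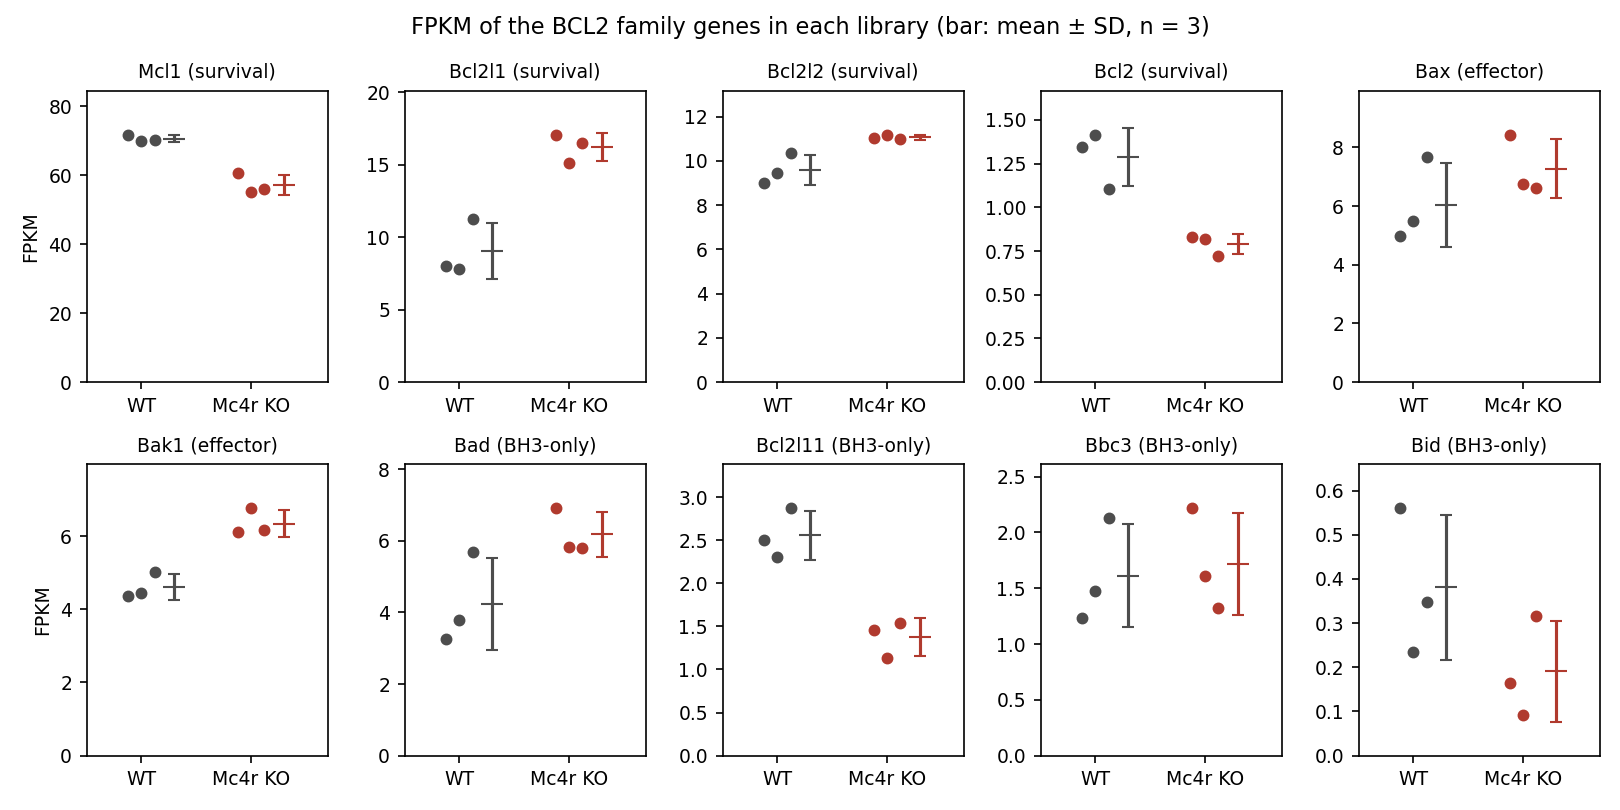
FPKM (vertical axes, each from 0) of the 10 BCL2 family genes, with 1 point per library in replicate order and the mean with its SD beside the points (n = 3 per group). The groups are apart for Bcl2l1, Bcl2l2, Bak1 and Bad, with Mc4r KO above, and for Mcl1, Bcl2 and Bcl2l11, with Mc4r KO below, while Bax, Bbc3 and Bid overlap.

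Among the survival genes, Bcl2l1 was higher and Mcl1 and Bcl2 were lower in Mc4r KO mice. Bcl2l1 (ENSMUSG00000007659, chr2:152780668-152831728, minus strand) encodes BCL-XL and its shorter splice form, which the gene level sums. Its level was 8.04, 7.77 and 11.3 FPKM in the WT mice and 17.0, 15.1 and 16.5 FPKM in the Mc4r KO mice, in replicate order. The lowest Mc4r KO library was above the highest WT library, and WT replicate 3 was the nearest of the WT libraries to the Mc4r KO mice. The means were 9.03 ± 1.95 and 16.2 ± 0.990 FPKM (SD, n = 3 each), a 1.79-fold higher mean in Mc4r KO mice. The log2 fold change of 0.86 (SE 0.15, 95% interval 0.50 to 1.21) had an adjusted p of 0.0587 in limma. Between 512 and 1213 reads per library lay behind these levels. Without WT replicate 3 the log2 fold change was 1.02 with an adjusted p of 0.0105, a call. With the mitochondrial share as a covariate it was 0.41 with an adjusted p of 0.322.

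Mcl1 (ENSMUSG00000038612, chr3:95658788-95663176, plus strand) encodes a survival protein with a short life, so that its amount follows its synthesis closely. It stood at 71.7, 69.9 and 70.1 FPKM in the WT mice and at 60.6, 55.0 and 56.1 FPKM in the Mc4r KO mice, in replicate order. The 3 WT libraries lay close together and all Mc4r KO libraries were below them. The log2 fold change was -0.30 (SE 0.08, 95% interval -0.48 to -0.12) with an adjusted p of 0.104 in limma, on 2858 to 4083 reads per library. This is a smaller difference on the log2 scale than that of Bcl2l1, but Mcl1 began from a much higher level: its mean was 70.6 ± 0.955 FPKM in WT and 57.2 ± 2.94 FPKM in Mc4r KO mice (SD, n = 3 each). After scaling to the FPKM outside the mitochondrial chromosome, which shifted the median of all genes tested by -0.18 on the log2 scale, its log2 fold change was -0.50 with an adjusted p of 0.0863.

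Bcl2 (ENSMUSG00000057329, chr1:106538178-106714274, minus strand), the first survival gene of the family to be described, had 1.35, 1.41 and 1.10 FPKM in the WT mice, in replicate order. The Mc4r KO mice had 0.830, 0.819 and 0.722 FPKM. Every Mc4r KO library was below every WT library, with WT replicate 3 the lowest of its group. The mean in Mc4r KO mice was 0.614 times that in WT mice, and the log2 fold change of -0.64 (SE 0.17, 95% interval -1.03 to -0.24) had an adjusted p of 0.108 in limma. The level rested on 106 to 186 reads per library, and 5.25% of the 50-base words of its transcripts also occurred in transcripts of other genes. With the mitochondrial share as a covariate the estimate was -0.37 with an adjusted p of 0.649, and with a pseudocount of 1 it was -0.35.

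Bcl2l2 (ENSMUSG00000089682, chr14:54883377-54888234, plus strand) encodes BCL-W, a close relative of BCL-XL. It had 9.01, 9.44 and 10.3 FPKM in the WT mice and 11.03, 11.17 and 10.98 FPKM in the Mc4r KO mice, in replicate order. The groups did not overlap, but the distance was small: the log2 fold change was 0.20 (SE 0.09, 95% interval 0.0012 to 0.41) with an adjusted p of 0.238 in limma. After scaling to the FPKM outside the mitochondrial chromosome it was 0.01, where the median over all genes tested was -0.19. Of its exonic bases, 13.3% were shared on the same strand with Gm20521, which had 0 reads in every library.

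The effectors were both higher on average in Mc4r KO mice, but without overlap for Bak1 alone. Bak1 (ENSMUSG00000057789, chr17:27019810-27029009, minus strand), whose protein sits in the outer mitochondrial membrane at rest, had 4.36, 4.45 and 5.03 FPKM in the WT mice, in replicate order. It had 6.10, 6.75 and 6.16 FPKM in the Mc4r KO mice. All Mc4r KO libraries were above all WT libraries, and the mean was 1.37-fold higher. The log2 fold change was 0.45 (SE 0.10, 95% interval 0.21 to 0.69) with an adjusted p of 0.0904 in limma. It was 0.26 with an adjusted p of 0.189 after scaling to the FPKM outside the mitochondrial chromosome. The exons of Ggnbp1 on the opposite strand covered 25.5% of the exonic bases of Bak1, and Ggnbp1 itself had a log2 fold change of 0.54. The use of strand in counting is not given in the sources used here, so reads of the overlap cannot be told apart.

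Bax (ENSMUSG00000003873, chr7:45461697-45466898, minus strand), whose protein moves from the cytosol to the mitochondria on activation, did not separate the groups. It had 4.995, 5.48 and 7.68 FPKM in the WT mice and 8.42, 6.77 and 6.60 FPKM in the Mc4r KO mice, in replicate order. WT replicate 3 was above 2 of the 3 Mc4r KO libraries. The log2 fold change was 0.28 (SE 0.18, 95% interval -0.15 to 0.70) with an adjusted p of 0.428 in limma, and an exact two-sided permutation test gave p = 0.3, where 3 libraries against 3 cannot go below 0.1. With the mitochondrial share as a covariate the estimate was -0.21.

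Of the BH3-only genes, Bcl2l11 was lower and Bad higher in Mc4r KO mice without overlap, while Bbc3 and Bid overlapped. None of them passed the test between the groups. Bcl2l11 (ENSMUSG00000027381, chr2:128126038-128162547, plus strand) encodes BIM, which binds all survival proteins and can engage the effectors directly. It had 2.50, 2.31 and 2.87 FPKM in the WT mice and 1.46, 1.13 and 1.54 FPKM in the Mc4r KO mice, in replicate order. The highest Mc4r KO library was well below the lowest WT library. The mean in Mc4r KO mice was 0.538 times that in WT mice, and the log2 fold change of -0.85 (SE 0.16, 95% interval -1.23 to -0.47) had an adjusted p of 0.0664 in limma, on 138 to 392 reads per library. Without WT replicate 3 it was -0.77 with an adjusted p of 0.0581, and with a pseudocount of 1 it was -0.58.

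Bad (ENSMUSG00000024959, chr19:6941861-6951898, plus strand) encodes a BH3-only protein that growth factor signals inactivate by phosphorylation. It had 3.25, 3.78 and 5.68 FPKM in the WT mice and 6.90, 5.84 and 5.81 FPKM in the Mc4r KO mice, in replicate order. The groups were separate by a narrow margin, since WT replicate 3 lay just under the Mc4r KO libraries. The log2 fold change was 0.57 (SE 0.20, 95% interval 0.09 to 1.05) with an adjusted p of 0.183 in limma. Without WT replicate 3 it was 0.80 with an adjusted p of 0.0304, a call, and with the mitochondrial share as a covariate it was -0.03 with an adjusted p of 0.969. Exons of Gpr137 on the opposite strand covered 20.5% of its exonic bases, and Gpr137 had a log2 fold change of 0.59.

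Bbc3 (ENSMUSG00000002083, chr7:16308393-16318205, plus strand) encodes PUMA, a BH3-only protein known as a target of p53. Its level was 1.24, 1.48 and 2.13 FPKM in the WT mice and 2.21, 1.61 and 1.32 FPKM in the Mc4r KO mice, in replicate order. The groups covered nearly the same range, and the log2 fold change was 0.09 (SE 0.25, 95% interval -0.51 to 0.68) with an adjusted p of 0.877 in limma. Bid (ENSMUSG00000004446, chr6:120891930-120916853, minus strand), whose protein is cut by caspase 8 and links the death receptors to the mitochondria, had 0.559, 0.235 and 0.347 FPKM in the WT mice, in replicate order. In the Mc4r KO mice it had 0.163, 0.0927 and 0.316 FPKM. The groups overlapped, only 5 to 28 reads per library lay behind these levels, and the log2 fold change was -0.74 (SE 0.42, 95% interval -1.73 to 0.24) with an adjusted p of 0.363 in limma. Its interval reached past the estimates of Bcl2l11 and Bcl2, so the depth did not settle whether Bid differed. Exons of Bcl2l13 on the opposite strand covered 17.7% of its exonic bases.

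**Figure D2:**
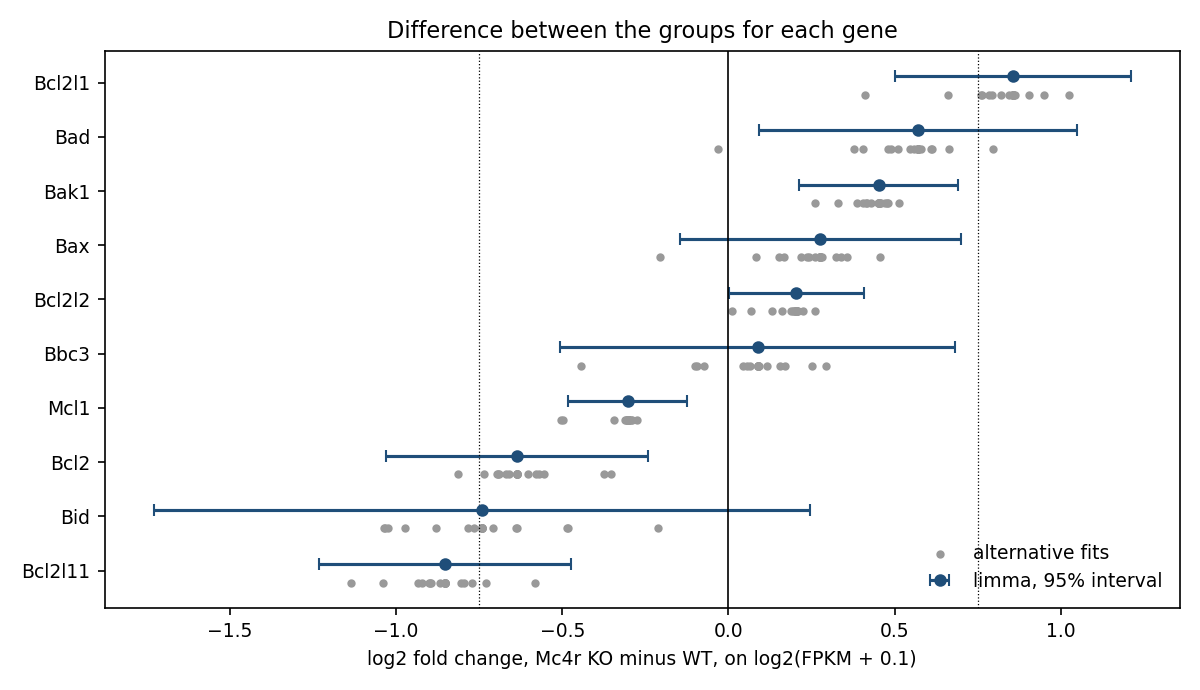
Log2 fold change (horizontal axis, Mc4r KO minus WT on log2(FPKM + 0.1)) of each gene, with the limma estimate and its 95% interval in blue, the estimates of the alternative fits in grey and dotted lines at the fold threshold of 0.75 in either direction. Bcl2l1 at 0.86 and Bcl2l11 at -0.85 lie past the dotted lines, Bid at -0.74 has the widest interval, and Bax, Bad and Bbc3 have alternative estimates on both sides of 0.

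All 4 shares of the survival genes and 2 of the 6 shares of the death genes were separate between the groups, while both totals overlapped. Mcl1 held 75.5 to 79.6% of the summed FPKM of the 4 survival genes in WT mice and 66.6 to 67.7% in Mc4r KO mice. The share of Bcl2l1 was 8.78 to 12.1% in WT and 18.4 to 19.6% in Mc4r KO mice, and that of Bcl2l2 was 10.01 to 11.1% and 12.3 to 13.6%. Bcl2 held 1.19 to 1.60% in WT and 0.856 to 0.998% in Mc4r KO mice. The sum of the 4 genes was 88.5 to 92.9 FPKM in WT and 82.1 to 89.5 FPKM in Mc4r KO mice. The 6 death genes, the effectors and BH3-only genes together, summed to 16.9 to 23.7 FPKM in WT and 21.7 to 25.3 FPKM in Mc4r KO mice. Within them Bcl2l11 held 12.1 to 14.8% in WT and 5.10 to 7.07% in Mc4r KO mice, and Bad 19.2 to 23.9% and 26.3 to 27.3%. Shares of the other death genes overlapped. Shares within a class depend on each other, and every gene with a separate share was also apart in FPKM. No count of such shares over all genes stands beside these. These sums count transcripts per length and say nothing of the proteins.

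**Figure D3:**
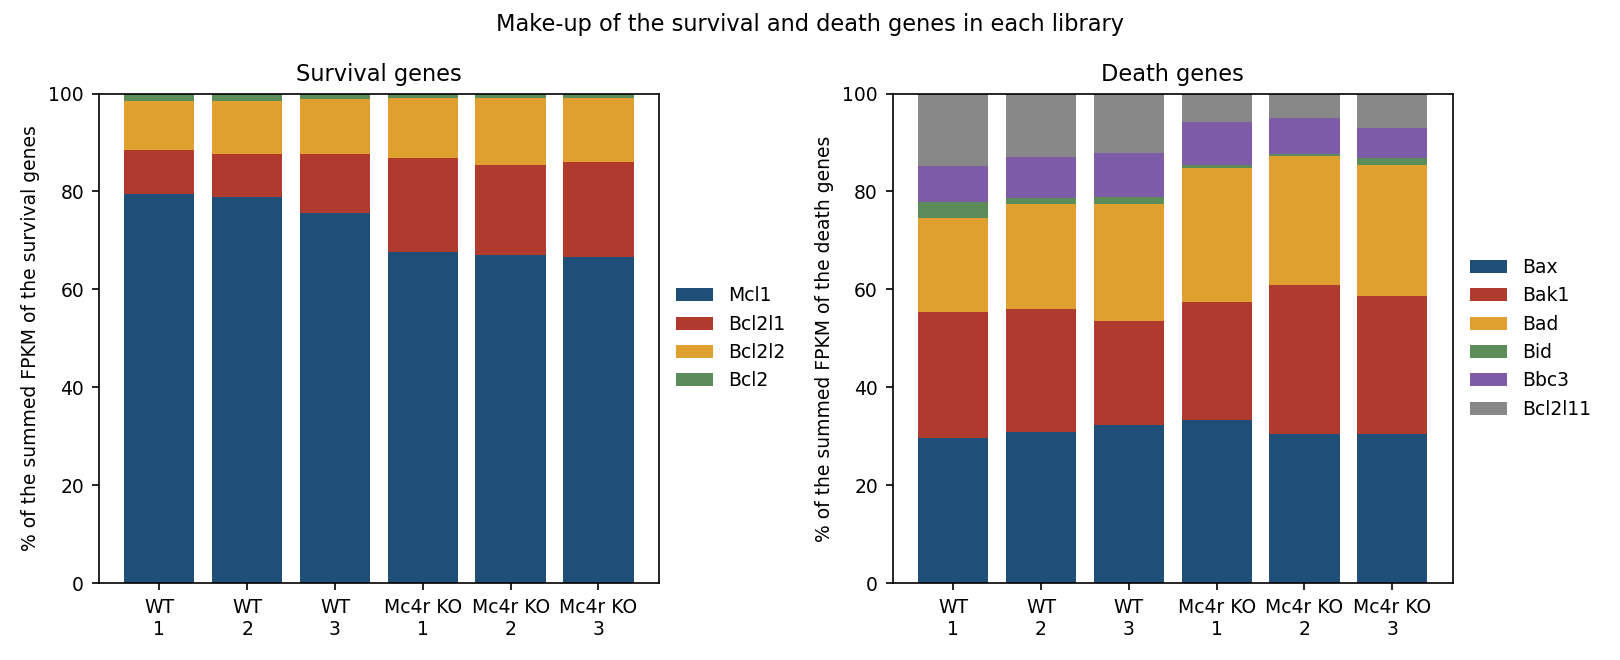
Share of each gene (vertical axis, percent of the summed FPKM) among the 4 survival genes on the left and the 6 death genes on the right, with 1 bar per library. In the Mc4r KO libraries the Mcl1 share is at 66.6 to 67.7% and the Bcl2l1 share at 18.4 to 19.6%, and the Bcl2l11 share is at most 7.07%.

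Ratios between genes within a library do not depend on how the libraries were scaled to each other. The ratio of Bcl2l1 to Bax was 1.61, 1.42 and 1.47 in the WT mice and 2.02, 2.23 and 2.49 in the Mc4r KO mice, in replicate order. That of Bcl2 to Bax was 0.270, 0.258 and 0.144 in the WT mice and 0.0986, 0.121 and 0.109 in the Mc4r KO mice, in replicate order. The 2 ratios to the same effector thus stood in opposite directions, neither with overlap. Bcl2l1 and Bcl2 were already apart in these directions in FPKM. For Bcl2 to Bax, WT replicate 3 was near the Mc4r KO mice. Bcl2 to Bcl2l1 was 0.0978 to 0.182 in WT and 0.0438 to 0.0542 in Mc4r KO mice. The other 3 ratios were chosen after the values of the genes had been seen. Mcl1 to Bcl2l1 was 8.91, 8.99 and 6.22 in the WT mice and 3.55, 3.64 and 3.40 in the Mc4r KO mice, in replicate order. Bcl2l1 to Bcl2l11, a survival gene over a BH3-only gene, was 3.22 to 3.93 in WT and 10.7 to 13.4 in Mc4r KO mice. Bak1 to Bax, the ratio of the effectors, was 0.655 to 0.873 in WT and 0.725 to 0.998 in Mc4r KO mice and overlapped. Bcl2 to Bcl2l1, Mcl1 to Bcl2l1 and Bcl2l1 to Bcl2l11 each join 2 genes that were apart in opposite directions, so their separation was certain. The ratios are descriptions with no test, and no count of separate ratios over other pairs of genes stands beside them. With the mitochondrial share as a covariate, the log2 ratio of Bcl2 to Bax was -0.17 in place of -0.91, and that of Bcl2 to Bcl2l1 was -0.79 in place of -1.49.

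**Figure D4:**
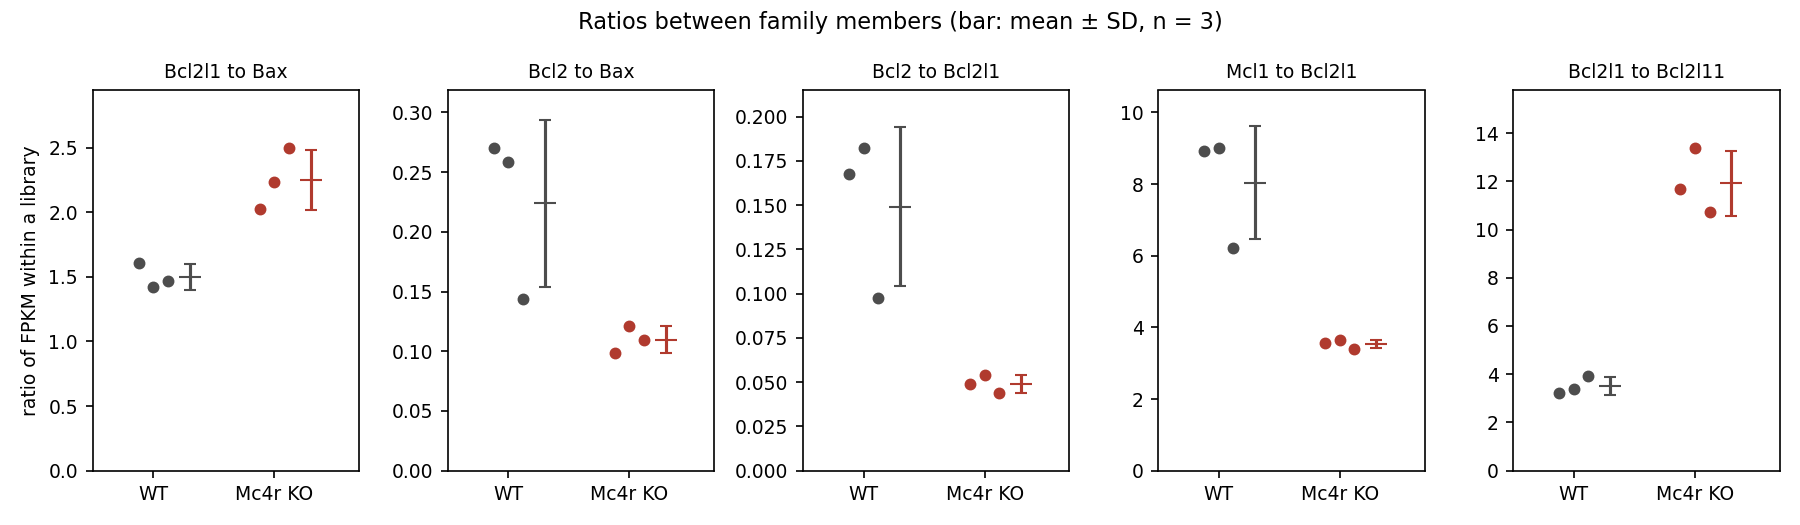
Ratio of the FPKM of 2 genes within each library (vertical axes, each from 0), with 1 point per library in replicate order and the mean with its SD (n = 3 per group). The groups are apart in all 5 panels, and the ratio of Bak1 to Bax, which overlapped, is not drawn. No count over other pairs of genes stands beside this. The last 3 panels each join 2 genes that were apart in opposite directions, so their separation was certain. WT replicate 3, the third WT point, is the nearest WT library to the Mc4r KO libraries in all panels except Bcl2l1 to Bax.

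Other genes of the pathway were described by their counts, and 0 of them were called in limma. Of the 19 other BCL2 family genes, 13 passed the filter, with 9 estimates above and 4 below 0 and a median log2 fold change of 0.14. At an unadjusted p under 0.05 there were 2 higher and 2 lower. Bcl2l13 and Bnip3l, both of which encode mitophagy receptors, differed in opposite directions: Bcl2l13 had 9.27 ± 0.378 FPKM in WT and 12.5 ± 0.925 FPKM in Mc4r KO mice (± SD, n = 3 each), which gave a log2 fold change of 0.42 with an adjusted p of 0.0840. Bnip3l had 16.7 ± 1.27 and 12.5 ± 0.475 FPKM, a log2 fold change of -0.41 with an adjusted p of 0.0843. Bnip3, its close relative, had 36.2 ± 7.68 and 48.4 ± 1.30 FPKM with an adjusted p of 0.184. Bcl2a1d, a survival gene of blood cells with near-identical copies in the mouse, had 4, 3 and 11 reads in the WT mice and 1, 0 and 3 reads in the Mc4r KO mice, in replicate order, with an adjusted p of 0.194, and the floor of 3 reads allows no fold.

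Downstream of the mitochondria, the 18 apoptosome, caspase and IAP genes were all tested, with 6 estimates above and 12 below 0 and a median of -0.11. At an unadjusted p under 0.05 there were 3 higher in Mc4r KO mice, Cycs, Dffa and Endog, and 1 lower. Cycs, the gene of cytochrome c, had 143 ± 10.2 FPKM in WT and 175 ± 11.5 FPKM in Mc4r KO mice (± SD, n = 3 each), which gave a log2 fold change of 0.30 with an adjusted p of 0.151. Dffa, the inhibitor of the caspase-activated DNase, had a log2 fold change of 0.52 with an adjusted p of 0.0593. Endog, a mitochondrial nuclease, had 0.83 with an adjusted p of 0.0813.

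Upstream, 11 of the 12 death receptor genes were tested, with 2 estimates above and 9 below 0 and a median of -0.10. At an unadjusted p under 0.05 there were 1 higher and 1 lower. Fas, the receptor of FAS ligand, had 7.29 ± 0.417 FPKM in WT and 10.9 ± 0.588 FPKM in Mc4r KO mice (SD, n = 3 each), and its log2 fold change of 0.58 had an adjusted p of 0.0514. The TRAIL receptor Tnfrsf10b had a log2 fold change of -0.69 with an adjusted p of 0.222, its ligand Tnfsf10 had -0.43 with an adjusted p of 0.277, and Cflar, the inhibitor of caspase 8, had -0.16 with an adjusted p of 0.396. Bid, which links these receptors to the mitochondria, had the fewest reads of the 10 BCL2 family genes.

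Among 12 mitochondrial partners of BAX and BAK, 7 estimates were above and 5 below 0, with a median of 0.11. At an unadjusted p under 0.05 there were 3, all higher in Mc4r KO mice. They were Mtch1 with a log2 fold change of 0.49 and an adjusted p of 0.131, Bcap31 with 0.35 and an adjusted p of 0.160, and Tmbim6 with 0.24 and an adjusted p of 0.216. March5, a ubiquitin ligase of the outer membrane, had 0.20 with an adjusted p of 0.258. The 29 regulators of BCL2 family genes and proteins had 11 estimates above and 18 below 0 and a median of -0.08, with 4 higher and 3 lower at an unadjusted p under 0.05. Ddit3, the gene of the stress factor CHOP, which is known to raise BIM and lower BCL2, had 5.63 ± 0.482 FPKM in WT and 8.88 ± 0.683 FPKM in Mc4r KO mice (± SD, n = 3 each), which gave a log2 fold change of 0.65 with an adjusted p of 0.0554. Trp53, which encodes p53, had 4.29 ± 0.476 and 3.03 ± 0.387 FPKM, a log2 fold change of -0.49 with an adjusted p of 0.124. Hif1a had -0.57 with an adjusted p of 0.107, and Ywhaz, a 14-3-3 gene whose product holds phosphorylated BAD in the cytosol, had -0.32 with an adjusted p of 0.113.

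**Figure D5:**
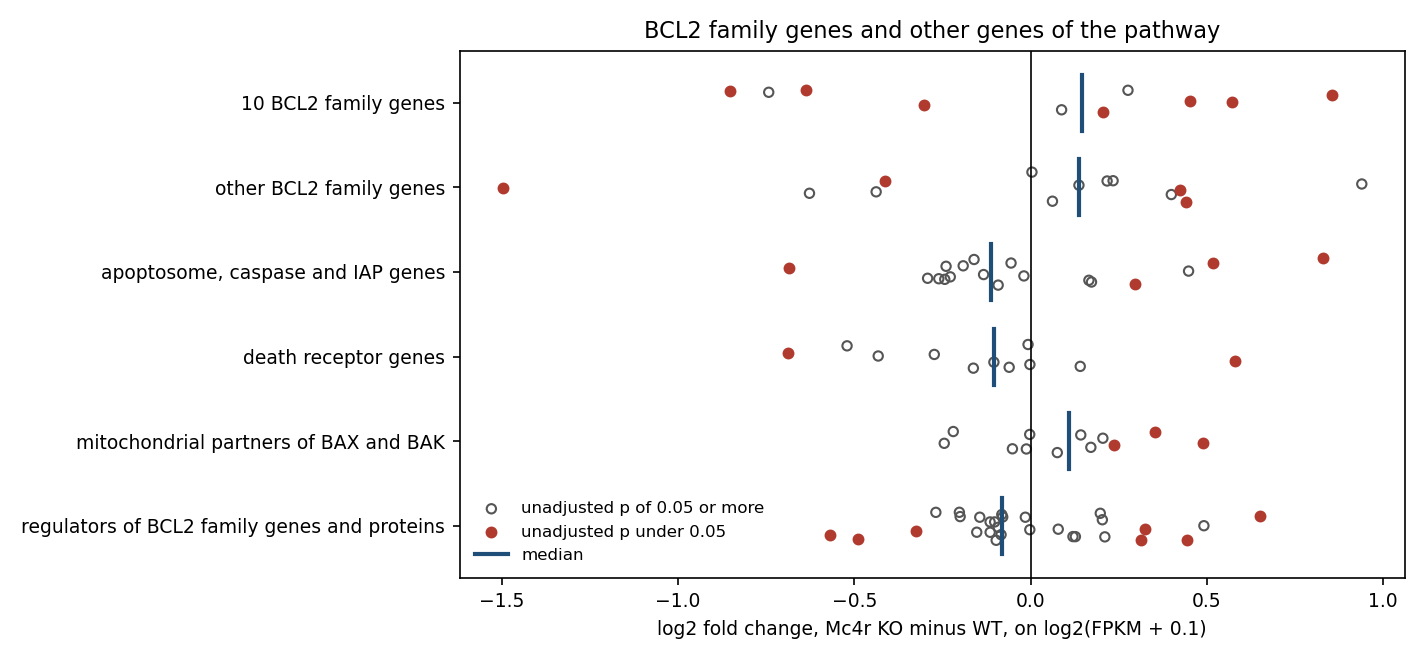
Log2 fold change (horizontal axis, Mc4r KO minus WT on log2(FPKM + 0.1)) of the 10 BCL2 family genes and of the tested genes of 5 other lists, with 1 point per gene, filled where the unadjusted p was under 0.05, and a bar at the median of each list. In every list but the mitochondrial partners, filled points lie on both sides of 0, and the 6 medians lie between -0.11 and 0.15.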

How the data were processed

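Polyadenylated RNA of 6 mouse hearts was sequenced by the authors, 3 WT and 3 Mc4r KO, after library preparation with a NEBNext Ultra kit. Per the labels, reads were aligned to mm10 with HISAT2 2.0.5 and base calls came from CASAVA. The study's methods name featureCounts for counting; neither the annotation release nor whether counting used strand is given in the sources used here. The deposited values are FPKM per gene, which the authors had already scaled between libraries: the median-of-ratios factors of the 6 libraries were equal (1.01 each). Multiplied by gene length, 100.0% of the FPKM fell on whole steps of their library, within a tolerance of 0.1 step, and so gave back 14691076 to 16047003 reads per library. The floor of 3 reads covers counting error only.

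Differences were fitted with limma 3.58.1 (R 4.3.3, trend) on log2(FPKM + 0.1) over the 18035 genes with a mean of at least 0.1 FPKM. Benjamini-Hochberg adjustment was over all of them, and the fit was tested on simulated data. The simulated data held no outlying library and no planted shift in the mitochondrial share, so that test does not cover these. Calls needed an absolute log2 fold change above 0.75 beside an adjusted p under 0.05. Genes named from the other lists were the called genes and the 4 detected genes with the smallest unadjusted p, with Trp53 and Cycs; a result that this rule names is not reported here. The genes, lists and tests were chosen with earlier results of these data known. Each library came from 1 mouse, and no 2 libraries of a group agreed within sampling noise. Exons were compared with GENCODE M21, which held 99.8% of the identifiers, and 27 symbols altered to dates were restored by identifier. Promoters are from RefSeq (GRCm38.p6). Alternatives covered the pseudocount, filter, scaling, tool, covariate, replicate block and each library left out.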

Additional observations from a re-analysis of the deposited data

How the results depend on the processing

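Over 20 alternative fits, the sign of the log2 fold change was the same in every fit for Bcl2l1 (0.41 to 1.02), Bcl2l11 (-1.14 to -0.58), Bcl2 (-0.81 to -0.35), Mcl1 (-0.50 to -0.28), Bak1 (0.26 to 0.51) and Bcl2l2 (0.01 to 0.26), and for Bid in the 19 fits that tested it (-1.04 to -0.21). Fits that changed only the filter, the gene set, the trend or shrinkage of the variances, or the replicate block returned the same estimate by construction. The median-of-ratios factors were equal and could hardly move it. Agreement of signs in these fits was therefore fixed in advance. Adjusted p-values ran from 0.0105 to 0.322 for Bcl2l1 and from 0.0146 to 0.243 for Bcl2l11. The sign was reversed with the mitochondrial share as a covariate for Bax (-0.21), Bad (-0.030) and Bbc3 (-0.44), and for Bbc3 also after scaling outside the mitochondrial chromosome (-0.10), without Mc4r KO replicate 1 (-0.10) and without WT replicate 1 (-0.075), its range without 1 library being -0.10 to 0.29. The mitochondrial share was higher in every WT library, so the covariate fit cannot fully separate this share from the genotype. The cause was not tested.

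Of the 10 genes, 2 were called (Bcl2l1 and Bcl2l11) with a mean FPKM of at least 1 (1.3% of all genes tested were called there), with array weights (2.41%), with protein-coding genes only (1.51%) and with limma voom on recovered reads (1.76%). The FPKM filter, which 9 of the 10 genes pass, and the restriction to protein-coding genes adjust over fewer genes. Leaving out 1 library gave 0 to 2 called genes, with 2, Bad and Bcl2l1, without WT replicate 3, where 632 genes or 3.5% were called. Of the apoptosome, caspase and IAP genes, 1 (Endog) was called with array weights, with protein-coding genes only and with voom; leaving out 1 library gave 0 to 2, the 2 without WT replicate 3 being Endog and Htra2, the latter named after its values were seen. All genes tested gave 83 calls in limma and, under the same settings, 147, 435, 204 and 317 calls. There were 44 with a pseudocount of 1, 22 with no filter, 49 after quantile normalization, 41 after scaling outside the mitochondrial chromosome, 21 with no trend, 2 with the mitochondrial share as a covariate and 0 to 632 without 1 library.

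The median log2 fold change of the 10 genes was -0.042 after scaling outside the mitochondrial chromosome, where that of all genes was -0.19, and -0.26 with the mitochondrial share as a covariate. With that covariate the log2 ratio of Bcl2 to Bax was -0.17 in place of -0.91, that of Bcl2 to Bcl2l1 was -0.79 in place of -1.49, and 3 of the 10 genes had an unadjusted p under 0.05 in place of 7. That count, chosen after seeing the data, was 5 to 8 in the other fits. Under the scalings and omissions tried for it, 5 to 8 genes had no overlap between the groups. The shares over all genes were not computed in these fits, so these counts cannot be set against them. Leaving out a library also makes separate groups more likely for any gene.

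The replicate numbers did not pair the samples: the deviations of same-numbered libraries correlated at -0.14, 0.01 and -0.08. With a replicate block 0 of the 10 genes and 11 of all genes were called. Each replicate number occurs in both groups, so the block cannot change an estimate or its sign. Depth limited Bid above all, with 5 to 28 reads per library.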
